A study of Mus musculus with 30 samples.

Results

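The libraries described here were made from 3T3-L1, a line of mouse fibroblasts used as model preadipocytes, in which Kdm5c had been depleted with siRNA. They are the 5 libraries of day 0 and the 5 libraries of day −2, 10 of the 30 in the study. They were chosen by the day and the siRNA given in the labels, with earlier results of these data known. The gene lists used below were also written with earlier results known. The comparison asks how knocked-down cells themselves changed over the 48 h between these days, across all genes. The study held 6 groups of 5 messenger RNA libraries: 50 nM of siRNA, either against Kdm5c or non-targeting (scramble), each collected on day −2, day −1 and day 0, which lie 24 h apart. In every group the siRNA was introduced with Lipofectamine RNAiMAX into sub-confluent cells by reverse transfection, the cells were kept in preadipocyte medium, and days are counted relative to differentiation, with transfection on day −3. The libraries were strand-specific (NuGEN Universal plus mRNA-Seq). All cells are of 1 line, the controls carry a transfected siRNA as well, and the knockdown left part of the Kdm5c transcript in place. Whether replicates came from separate cultures is not in the labels, so p-values here reflect only how far these libraries scatter, possibly for technical reasons.

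Preadipocytes divide until they fill the dish, then stop dividing on contact with their neighbours, and respond to adipogenic hormones from that arrested state. Genes for DNA synthesis are switched on by E2F transcription factors, and genes for mitosis largely through promoter elements called CHR and CCAAT, which are bound by complexes that include the DREAM and MuvB proteins and by NF-Y. KDM5C is an X-linked enzyme that removes methyl groups from lysine 4 of histone H3, a mark found at active promoters and enhancers.

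The 10 libraries held 26303560 to 30688043 reads, 99.73 to 99.8% of them in the 12016 genes of the deposited count table, and 3 reads, the limit that a count of 0 allows, were worth 0.098 to 0.114 CPM (reads scaled to a common library total). That limit covers counting error only. The share of reads from mitochondrial mRNAs was 2.085 to 2.375%. Markers of preadipocytes and mesenchymal cells summed to 8610 to 8798 CPM on day −2 and 8572 to 8851 CPM on day 0. Within that sum members moved in opposite directions: in group means Vim went from 3462 to 2011 CPM and Dlk1 from 1298 to 2074 CPM. Those of epithelial cells summed to at most 0.501 CPM in any of the 10 libraries. Among defining markers of other cell types, Adipoq, Plin1 and Cidec of fat cells, Adgre1, Ptprc and Itgam of macrophages, Cdh5 of endothelium and Myod1 of muscle had group means of at most 0.0977 CPM on both days. Other markers of these lists were measured at low levels: in group means Csf1r went from 5.69 to 1.52 CPM, Cd14 from 5.42 to 5.01 CPM, and Vwf from 1.06 to 4.43 CPM, and Des and Tnnt3 rose by 1.90 and 2.16 on the log2 scale. Summed over each list, macrophage markers went from 13.3 to 15 CPM on day −2 to 11.5 to 12.2 CPM on day 0, endothelial markers from 2.32 to 3.39 CPM to 5.04 to 7.88 CPM and muscle markers from 1.94 to 2.44 CPM to 7.94 to 9.47 CPM. Bone and cartilage markers went from 1460 to 1529 CPM to 3265 to 3332 CPM, most of it from Spp1, which went from 1302 to 2969 CPM. Of the 6 tested members of that list 5 rose, and Runx2 fell by 0.24 on the log2 scale. The defining markers Sp7, Bglap, Ibsp, Col2a1 and Acan had group means of at most 0.779 CPM on both days. The part of these markers in the results was not tested. The longer fat cell list summed to 685 to 702 CPM on day −2 and 921 to 1025 CPM on day 0, with 14 of its 30 genes in the count table; Lpl alone went from 211 to 541 CPM, while Angptl4 went from 126 to 58.9 CPM, Fabp5 from 71.4 to 27.1 CPM and Plin2 from 163 to 129.8 CPM. In whole-culture RNA a smaller number of cells of a type and less RNA per cell cannot be told apart. Principal component 1 of the 15 Kdm5c siRNA libraries took up 87% of the variance and ordered the libraries by day: −42.8 to −44.64 on day −2, −1.07 to 4.84 on day −1 and 38.43 to 43.34 on day 0. Replicate 2 of day −2 stood apart in interferon-stimulated genes. Its mean level over that list was 5.17 on the log2(CPM + 0.5) scale, against 3.88 to 4.22 in the other 4 libraries of its group. Results on that list from day −2 to day 0 are therefore given with and without it.

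Kdm5c itself, the target of the siRNA, regained part of its level. The transcript (ENSMUSG00000025332, GRCm38 chromosome X, 152233020 to 152274535, plus strand) was at 25.8, 25.8, 26.7, 25.9 and 23.3 CPM in the 5 day −2 libraries, at 35.7, 37.9, 39.3, 35.4 and 29.9 CPM on day −1 and at 49.2, 54.1, 53.3, 54.8 and 55.1 CPM on day 0. Each day lay above the one before without overlap. From day −2 to day 0 its rise was 1.02 log2 units (SE 0.05, edgeR adjusted p = 6.97e-21), which is 2.09-fold in CPM; an exact permutation test of its CPM, counting both directions, gave p = 0.00794, the smallest that 5 against 5 libraries can give. In scramble cells it rose 1.35-fold, so the level as a share of scramble went from 16.2% on day −2 to 18.9% on day −1 and 25.2% on day 0. The change in knocked-down cells was larger than that in scramble cells by 0.63 on the log2 scale (adjusted p = 1.16e-09).

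Most of the measured transcriptome changed over these 48 h. Of 12016 genes tested, 10506 were called at an adjusted p under 0.05, which is 87.4%: 5269 rose (43.8%), 5237 fell (43.6%) and 1510 were not called. These 3 shares are the background against which each gene group below has to be read over the 48 h. The even split follows in part from the scaling, which sets the libraries to a common level. All changes are relative to the other genes, and a change in RNA per cell shared by all genes would not show. Called changes had a median size of 0.516 (log2). Rises were larger than falls at the top of the range: 1324 genes rose and 797 fell over 2-fold, 289 rose and 73 fell over 4-fold, and 80 rose and 16 fell over 8-fold. These counts cover the genes of the count table only. Among genes outside it, described further below, 368 were called higher and 94 lower by over 4-fold. In 9385 genes (78.1%) the 5 libraries of one day did not overlap with the 5 of the other. The first 24 h held 9226 called genes (76.8%), with 38.2% of all genes tested higher and 38.5% lower. The last 24 h held 8978 (74.7%), with 36.6% higher and 38.1% lower. These shares are the background for counts within a single step. The steps share the day −1 libraries with each other and an end with the whole interval.

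The largest changes were ranked among the 12016 genes tested, leaving out those that averaged under 5 CPM over the 10 libraries. Genes outside the count table, such as Shank2 described further below, were not ranked. The 12 largest rises were between 4.29 and 5.48 log2 units, in genes of varied function. Col23a1, which encodes a transmembrane collagen (chromosome 11, 51289920 to 51583918, plus strand), was at 0.24, 0.475, 0.152, 0.275 and 0.38 CPM on day −2 and at 11.9, 13.2, 14.7, 14.6 and 17.1 CPM on day 0. Its rise was 5.48 log2 units (SE 0.19, adjusted p = 9.83e-24), from close to the detection limit in every library. Bmf, a pro-apoptotic member of the BCL2 family, went from 1.51, 2.2, 1.82, 1.85 and 1.25 CPM to 46.3, 55.6, 60.3, 55.2 and 60.8 CPM (log2 fold change 4.96, SE 0.16, adjusted p = 5.07e-25). Abca1, the transporter that hands cholesterol to lipoprotein particles, went from 4.77, 4.37, 4.71, 2.85 and 4.14 CPM to 80.6, 91.8, 90.2, 81.1 and 91 CPM (log2 fold change 4.34, SE 0.11, adjusted p = 6.28e-28). Its partner in sterol efflux, Abcg1, rose by 4.38. Ptprv, a receptor-type phosphatase gene, rose by 5.35, the globin gene Cygb by 4.92 and Plxdc1, for a plexin domain protein, by 4.75. Ces1a, of a family of carboxylesterases, rose by 4.66, Plekha6 by 4.48, the glycogen regulator gene Ppp1r3c by 4.34, the phospholipid acyltransferase gene Lpcat2 by 4.33 and Cpxm1, for a secreted carboxypeptidase-like protein, by 4.29. Ces1a belongs to a family of near-identical neighbours, and how reads shared between copies were assigned is not given in the sources used here. All 12 of these genes rose in both steps, and the course of Ces1a was uneven: it rose by 0.68 in the first 24 h (adjusted p = 0.00877) and by 3.98 in the last (adjusted p = 1.09e-23).

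By the same rule, the 12 genes with the largest falls had log2 fold changes from −6.53 to −3.04 and were as varied. Lce1g, of the late cornified envelope family (chromosome 3, 92750148 to 92752338, minus strand), was at 19.8, 19.4, 21.3, 20.9 and 21.4 CPM on day −2 and at 0.196, 0.424, 0.142, 0.143 and 0.218 CPM on day 0. Its log2 fold change was −6.53 (SE 0.12, adjusted p = 1.03e-31), to a level close to the detection limit. Acta1, skeletal muscle alpha-actin, went from 31.8, 32.4, 34.8, 31.9 and 31.9 CPM to 0.652, 1.2, 0.85, 0.572 and 1.09 CPM and had fallen by 4.34 of its 5.26 log2 units by day −1. Fhl1, a LIM protein gene of muscle, fell by 4.25 on the log2 scale, the membrane protein gene Dynap by 4.16 and Lgr6, a receptor for R-spondins, by 4.05. Pcolce2, which enhances procollagen cleavage, fell by 3.58, and so did the endocytic receptor gene Lrp2 (−3.47), the Ras activator gene Rasgrp3 (−3.44), the protease gene Tll1 (−3.19) and the orphan receptor gene Gprc5a (−3.18). Ccn2, a matrix protein induced by TGF-beta and YAP, was at 68.2, 80.9, 71.3, 71.9 and 68.2 CPM on day −2 and at 9.06, 6.19, 7.12, 8.08 and 7 CPM on day 0 (log2 fold change −3.30, SE 0.10, adjusted p = 4.82e-25). Id2, an inhibitor of helix-loop-helix factors that is high in dividing cells, went from 71.4, 64.7, 77.6, 75.3 and 71.8 CPM to 10.1, 8.02, 8.32, 9.3 and 9.43 CPM (log2 fold change −3.04). Unlike Acta1, Id2 fell mostly late, by 0.92 in the first 24 h and by 2.11 in the last.

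**Figure D1:**
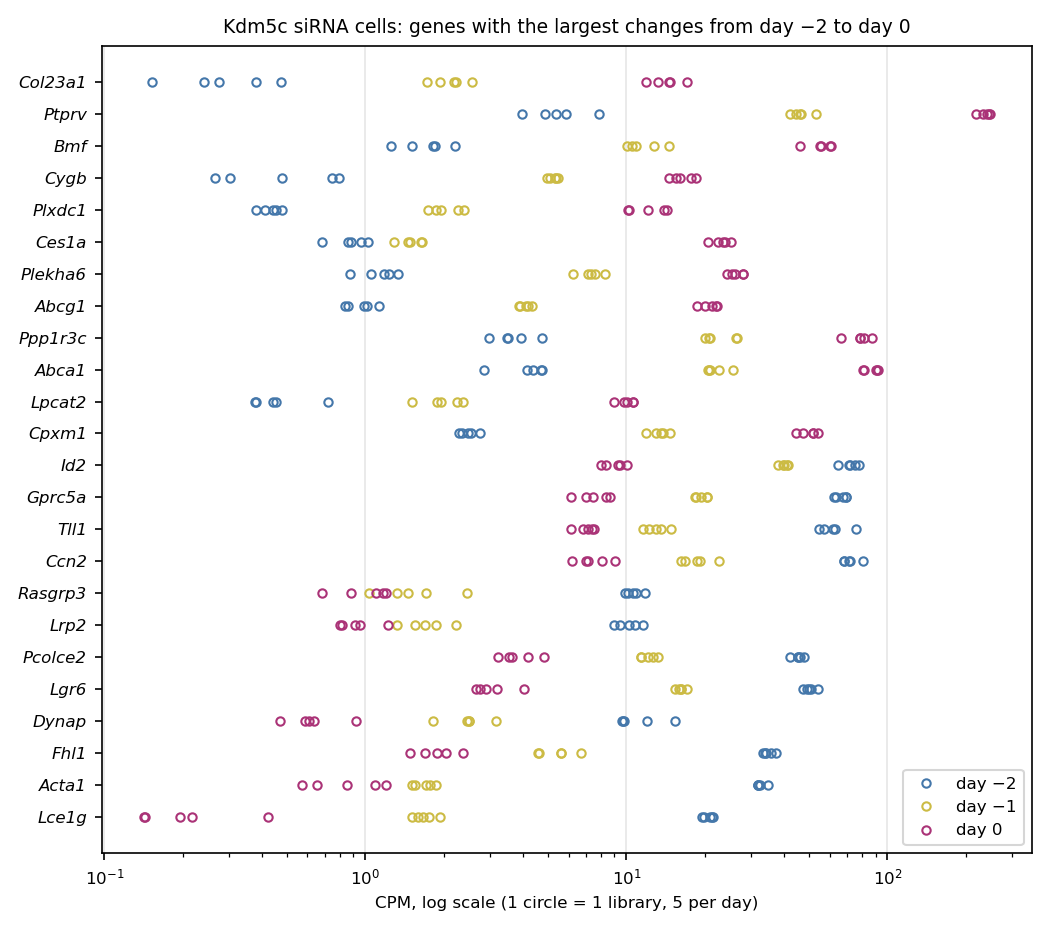
CPM (log axis) of the 24 genes with the largest changes between day −2 and day 0 in Kdm5c siRNA cells. They were ranked among genes of the deposited count table that averaged at least 5 CPM over the 10 libraries. Each circle is 1 library, 5 per day. The 12 genes at the top rose and the 12 at the bottom fell, day 0 and day −2 do not overlap in any of them, and day −1 lies between them in most; Lce1g spans 21.4 to 0.142 CPM.

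Genes of mitosis fell almost without exception. Of 63 measured members, 62 fell, 0 rose and Cdc25b was not called, with a median log2 fold change of −1.22; 47 fell over 2-fold. Over all genes tested the median was −0.0004. Cdk1, the kinase that drives entry into mitosis, was at 140.4, 138.5, 136.2, 138.9 and 136.6 CPM on day −2, at 95.7 to 106 CPM on day −1 and at 53.7, 47, 46.9, 49.5 and 48.2 CPM on day 0 (log2 fold change −1.53, SE 0.03, adjusted p = 1.77e-30). Plk1, a kinase of spindle assembly, went from 152, 146.7, 148.5, 151.8 and 152.6 CPM to 53.5, 49, 45.5, 50.4 and 47.4 CPM (log2 fold change −1.65). Cdc20, an activator of the anaphase-promoting complex, fell by 1.55, and so did the survivin gene Birc5 (−1.68), the cyclin genes Ccna2 (−1.63) and Ccnb1 (−1.25) and Foxm1 (−1.58), a transcription factor of mitotic genes. Mki67, the proliferation marker, went from 565, 542.6, 568.9, 576.6 and 563.3 CPM to 260.8, 256.4, 240, 243.2 and 248.8 CPM. All day 0 libraries lay below all day −2 libraries in each of these genes, yet Cdk1, Plk1 and Mki67 transcripts remained well above the detection limit on day 0. The fall was uneven in time: the list's median was −0.31 for the first 24 h, with 55 members called lower, and −0.91 for the last 24 h, with all 63 called lower. Of all genes tested, 38.5% and 38.1% were called lower in these steps. Cdc25b, a phosphatase that activates CDK1, was at 69 to 75 CPM on day −2, 86 to 94.3 CPM on day −1 and 73.1 to 82.5 CPM on day 0.

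DNA replication genes fell as broadly. Of 56 measured members, 55 fell and 1 rose, with a median of −1.12; the median was −0.39 in the first 24 h, with 51 called lower, and −0.67 in the last, with 55. Rrm2, the regulated subunit of ribonucleotide reductase, was at 334.7, 324.5, 341.2, 329.1 and 333 CPM on day −2, at 151 to 161.4 CPM on day −1 and at 62.7, 55.7, 55.4, 57.8 and 52.2 CPM on day 0. Its log2 fold change was −2.59 (SE 0.05, adjusted p = 1.82e-31), the largest fall in the list. Mcm5, a subunit of the replicative helicase, went from 248.2, 244.1, 248.4, 244.5 and 243.8 CPM to 99.8, 87, 87.4, 89.6 and 83.4 CPM (log2 fold change −1.50). Falls were also called for the origin licensing gene Cdc6 (−1.72), the thymidine kinase gene Tk1 (−1.73), the clamp gene Pcna (−1.12) and Mcm2 (−0.97), another helicase subunit. Orc3, a subunit of the origin recognition complex, was the exception and rose by 0.14 (adjusted p = 0.000317).

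Since the mitosis and replication genes moved together, their promoters are shown here for the elements known to control them. The windows are RefSeq promoters on GRCm38.p6, from 250 bases before to 50 after the gene's start, written in the direction of the gene; 52 of the 63 mitosis genes and 47 of the 56 replication genes had one. The CHR element was searched as TTTGAA or TTCGAA, the CCAAT box as CCAAT, and the E2F-like element as TTTGGCGC, TTTCCCGC or TTTCGCGC, each as an exact match on either strand. In the 3 mitosis promoters that follow, capitals mark CHR and CCAAT matches: Cdk1 has 2 CHR and 3 CCAAT matches, Plk1 has 1 of each, and Cdc20 has 1 CHR and 2 CCAAT matches.
Cdk1, chr10:69352863-69353162, minus strand: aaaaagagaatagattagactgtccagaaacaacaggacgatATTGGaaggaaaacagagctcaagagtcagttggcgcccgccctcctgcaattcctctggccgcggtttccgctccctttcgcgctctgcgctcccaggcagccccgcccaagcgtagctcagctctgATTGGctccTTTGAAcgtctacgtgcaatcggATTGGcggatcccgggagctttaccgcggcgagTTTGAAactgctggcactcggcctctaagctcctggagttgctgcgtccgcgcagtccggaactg
Plk1, chr7:122159185-122159484, plus strand: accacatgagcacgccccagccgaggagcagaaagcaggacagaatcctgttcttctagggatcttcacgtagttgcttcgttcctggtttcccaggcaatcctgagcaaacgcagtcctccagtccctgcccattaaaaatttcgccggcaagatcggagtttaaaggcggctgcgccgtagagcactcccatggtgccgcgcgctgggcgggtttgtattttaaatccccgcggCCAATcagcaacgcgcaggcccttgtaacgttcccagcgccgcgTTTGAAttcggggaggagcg
Cdc20, chr4:118437294-118437593, minus strand: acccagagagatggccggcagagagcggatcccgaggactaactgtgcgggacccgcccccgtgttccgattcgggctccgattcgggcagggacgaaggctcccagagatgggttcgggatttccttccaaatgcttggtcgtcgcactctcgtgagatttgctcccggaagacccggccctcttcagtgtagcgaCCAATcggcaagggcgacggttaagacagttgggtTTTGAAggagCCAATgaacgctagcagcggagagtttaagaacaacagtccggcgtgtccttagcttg
All windows shown hold a match of the kind described: of the 7 mitosis promoters read out for key genes, those of Ccnb1 and Birc5 hold no CHR match. In these 2 replication promoters, the only ones of 8 key genes with an E2F-like match (Mcm2, Pcna, Tyms, Tk1, Rrm2 and Top2a have none), capitals mark E2F-like and CCAAT matches. Mcm5 has 2 overlapping E2F-like matches, which read as 1 run, and 3 CCAAT boxes, and Cdc6 has 1 E2F-like match and no CCAAT box.
Mcm5, chr8:75109259-75109558, plus strand: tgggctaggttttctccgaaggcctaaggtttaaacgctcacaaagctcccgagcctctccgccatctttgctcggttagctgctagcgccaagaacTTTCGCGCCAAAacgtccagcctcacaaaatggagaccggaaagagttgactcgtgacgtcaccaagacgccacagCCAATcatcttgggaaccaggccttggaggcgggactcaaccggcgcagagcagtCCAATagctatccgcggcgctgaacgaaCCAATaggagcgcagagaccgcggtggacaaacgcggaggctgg
Cdc6, chr11:98907901-98908200, plus strand: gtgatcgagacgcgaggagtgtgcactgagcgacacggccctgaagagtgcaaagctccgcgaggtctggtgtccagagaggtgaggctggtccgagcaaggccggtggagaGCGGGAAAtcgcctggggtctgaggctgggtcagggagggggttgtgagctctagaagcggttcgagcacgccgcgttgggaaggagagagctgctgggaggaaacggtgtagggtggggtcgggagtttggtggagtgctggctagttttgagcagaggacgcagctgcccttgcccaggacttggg

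CHR matches were frequent in the mitosis genes and lay near their starts. They were present in 39 of 52 mitosis promoters (75%), against 16.2% of the 9075 promoters of tested genes and 21.7% of all 27025 genes in the promoter table. CCAAT boxes were in 42 of the 52 (80.8%), against 43.6% of tested genes, and both elements together in 35 (67.3%), against 6.95%. For DNA replication the pattern was another one: 10 of 47 promoters had a CHR match (21.3%), 30 a CCAAT box (63.8%) and 18 an E2F-like match (38.3%), the last against 4.28% of tested genes and 5.77% of mitosis genes. Those shares count a gene once, if any of its windows matched. Of the 52 CHR matches in mitosis promoters, 37 (71.2%) began within 50 bases of the gene's start, compared with 24.9% of the 1757 matches in tested genes. Matches were counted in every window, so sites of genes with overlapping windows, such as Ect2, Bub3 and Prc1, count more than once. In Plk1 the CHR match began 30 bases after the start and the CCAAT box 14 bases before it; in Cdc20 the CHR match began 18 bases before the start. Of 25 E2F-like matches in replication promoters, 16 (64%) began within 50 bases, against 32% in tested genes. Within the mitosis list the size of the fall did not follow the CHR match: the median was −1.21 for the 39 genes with a match and −1.25 for the 13 without. Among all tested genes CHR matches were about as frequent in those called lower (17%) as in those called higher (15%), and E2F-like matches were in 5.81% and 2.95%. The exact match is a description of these letters in this window and was given no test.

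**Figure D2:**
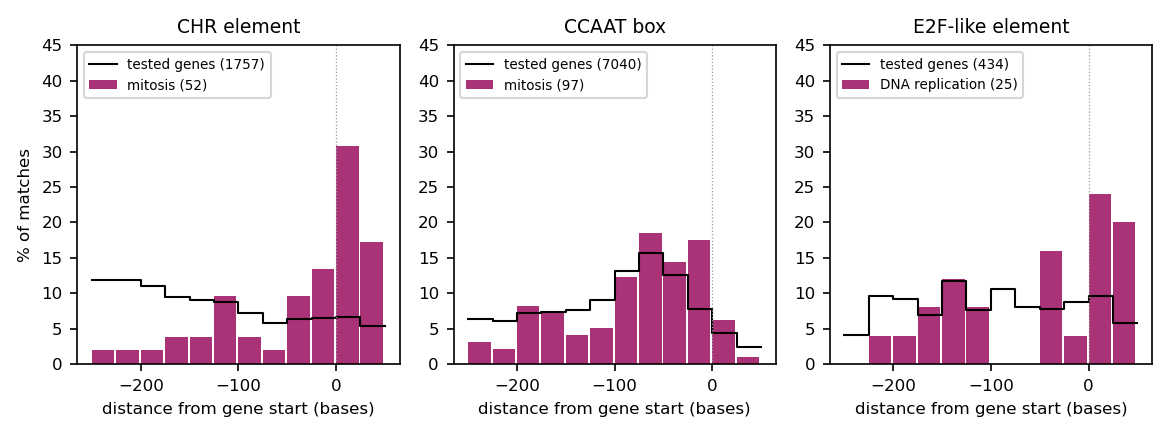
Share of exact matches (percent, both strands) by distance of the match from the gene's start in bases, in bins of 25 bases; bars are the mitosis or DNA replication genes and the line all tested genes, with the number of matches in brackets. CHR matches of mitosis genes gather at the start, with 71.2% within 50 bases against 24.9% in tested genes, and so do E2F-like matches of replication genes, 64% against 32%; CCAAT boxes of mitosis genes follow tested genes more closely, with a median distance of −62 against −87.

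The regulators of the G1 phase moved in both directions. Of 16 measured cyclins, CDKs and inhibitors, 7 rose and 9 fell. Among the drivers, Ccnd1, the cyclin induced by growth factors and adhesion, fell by 1.30 on the log2 scale, Ccne1 and Ccne2, the cyclins of S phase entry, by 1.39 and 2.12, and Ccnd3 by 0.66, while Ccnd2 fell by only 0.05. Among the inhibitors, Cdkn1a (p21) was at 120.6, 114.5, 107.5, 118.1 and 114.7 CPM on day −2 and at 272.7, 280.3, 273.7, 269.5 and 271.8 CPM on day 0 (log2 fold change 1.21, adjusted p = 1.98e-28). Cdkn1b (p27) rose by 0.63, from 120 to 132.3 CPM on day −2 to 196.7 to 202.3 CPM on day 0, Cdkn2a by 1.03 and Cdkn2c by 0.75, while the inhibitor gene Cdkn2d fell by 0.26. Of 19 E2F and pocket protein genes, 15 fell and 2 rose, with a median of −0.69. The 2 that rose were the retinoblastoma family genes Rb1, by 0.79, and Rbl2, by 0.72, whereas the third family member Rbl1 fell by 0.39. E2f7 fell by 1.90, E2f1 by 0.69 and Mybl2, the B-Myb gene of the MuvB complex, by 2.15. In the p53 list 17 of 26 genes rose and 7 fell. Trp53inp1 rose by 2.46, the growth arrest gene Gadd45a by 2.19 and Cdkn1a as above, and Trp53 itself fell by 0.65.

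Genes of ribosome production fell in both steps. Of 53 measured members of the list of ribosome biogenesis genes and Myc, 49 fell and 4 rose, with a median of −1.14; the first 24 h gave −0.65 and the last −0.51. Myc, the growth factor-induced activator of these genes, was at 148.1, 171.8, 151.7, 158.4 and 160.6 CPM on day −2, at 74.7 to 88.5 CPM on day −1 and at 52.5, 43.9, 40.6, 47.5 and 42.8 CPM on day 0 (log2 fold change −1.84, SE 0.08, adjusted p = 1.93e-21). Ncl, the nucleolar protein nucleolin, went from 2203, 2328, 2176, 2224 and 2290 CPM to 841.9, 750.7, 739.8, 754.7 and 736 CPM (log2 fold change −1.59). Rrp12, an export factor of the small subunit, fell by 1.98, and so did the small nucleolar RNA protein genes Fbl (−1.22) and Nop56 (−1.53) and the nucleolar gene Npm1 (−1.10). The 4 members that rose encode antagonists of Myc: Mxd1 by 1.46, Mxd4 by 1.44, Mxi1 by 1.04 and Mnt by 0.71, while their relative Mxd3 fell by 0.52. Genes for ribosomal proteins fell by less, 61 of 67 with a median of −0.29; Rps20 and Rps28 rose, by 0.13 and 0.11, and Rplp0 fell by 0.29. Of 45 nuclear genes of the respiratory chain, 37 fell and 3 rose, also with a median of −0.29. The largest fall there was that of the cytochrome c gene Cycs, by 1.47. Of the 7 measured mRNAs encoded in mitochondria, 3 fell and 2 rose, none by more than 0.37.

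Most matrix genes rose. Of 23 measured collagen chain genes, 21 rose and 1 fell, with a median of 1.36, and 15 of the changes were over 2-fold. Col3a1, a chain of fibrillar collagen in soft tissue, was at 1636, 1537, 1570, 1558 and 1576 CPM on day −2 and at 4329, 4807, 5025, 4844 and 5134 CPM on day 0 (log2 fold change 1.58, SE 0.05, adjusted p = 2.81e-24). Col15a1, of the basement membrane zone, went from 2.78, 2.85, 1.94, 1.85 and 2.32 CPM to 37.7, 47.1, 40.9, 36.6 and 39.2 CPM (log2 fold change 4.05). The 3 collagen VI genes moved alike, Col6a1 by 1.64, Col6a2 by 1.57 and Col6a3 by 1.37. Col1a1 and Col1a2, the chains of collagen I, rose by only 0.16 and 0.38, and Col8a1 fell by 1.56. Of 44 matrix glycoproteins and proteoglycans, 31 rose and 8 fell, with a median of 0.90. Fn1, fibronectin, was at 7565, 7510, 7303, 7355 and 7109 CPM on day −2, 9729 to 10110 CPM on day −1 and 20450, 21980, 21190, 20240 and 21000 CPM on day 0, so most of its rise of 1.47 fell in the last 24 h. The decorin gene Dcn went from 14.8, 14.1, 11.1, 12.1 and 12.7 CPM to 150.7, 171.1, 174.2, 161.6 and 169 CPM (log2 fold change 3.63), and the laminin gene Lama4 rose by 2.42. Among matricellular genes the log2 fold change was −2.24 for Ccn1, −3.30 for Ccn2 and −1.12 for Thbs1, but 1.01 for Thbs2, 1.01 for Tnc and 0.89 for Postn.

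Most genes of matrix remodelling rose too. Of 29 measured proteases and inhibitors, 24 rose and 5 fell, with a median of 0.92. Mmp2, gelatinase A, was at 244.3, 227.6, 223.8, 216.1 and 215.6 CPM on day −2, 495.8 to 549.2 CPM on day −1 and 1654, 1907, 1917, 1842 and 1924 CPM on day 0 (log2 fold change 3.00, SE 0.06, adjusted p = 1.1e-29). Mmp14, the membrane protease that activates MMP2, rose by 1.34, the collagenase gene Mmp13 by 3.25, stromelysin Mmp3 by 2.48 and cathepsin K (Ctsk) by 2.01. Timp1, a secreted inhibitor of metalloproteases, went from 383.4, 387.3, 381.8, 378.8 and 405.7 CPM to 162.9, 161.6, 158.4, 154.6 and 147.1 CPM (log2 fold change −1.34), whereas Timp2 and Timp3 rose by 0.29 and 0.92. Adam12, a membrane-bound metalloprotease gene, fell by 2.47. Of 25 genes for collagen processing and crosslinking, 11 rose and 12 fell, with a median of −0.0016 that turned to 0.04 without scaling factors: the proline hydroxylase gene P4ha1 rose by 0.92 and the chaperone gene Serpinh1 fell by 0.22, and Lox, the lysyl oxidase, was at 0.01 and not called.

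Most actin, adhesion and YAP target genes fell. Of 28 contractile and cytoskeletal genes, 23 fell and 3 rose, with a median of −0.53. Acta2, smooth muscle actin, was at 2776, 2821, 2817, 2740 and 2836 CPM on day −2, at 1002 to 1196 CPM on day −1 and at 715.1, 668, 688.2, 728.1 and 710.4 CPM on day 0 (log2 fold change −2.04, SE 0.04, adjusted p = 1.03e-31). Tagln fell by 2.66, Myl9 by 1.56 and Actb, the cytoplasmic actin, by 0.88; Acta1, Acta2 and Actg2 are near-identical in their coding parts, so their values rest on the unstated rule for shared reads. The 3 that rose were Mylk, the myosin light chain kinase, by 2.41, Des by 1.90 and Mrtfb by 0.13. Of 35 integrin and focal adhesion genes, 24 fell and 10 rose, with a median of −0.31: Itga3 fell by 1.33, the caveolin gene Cav1 by 1.35 and Zyx by 0.88, while Itga11, a collagen receptor subunit, rose by 2.01. Among 27 YAP, TAZ and TEAD genes and their targets, 18 fell and 6 rose, with a median of −0.51 over the whole interval, −0.41 in the first 24 h and −0.05 in the last. The targets Ankrd1 (−2.76), Ccn1 (−2.24) and Amotl2 (−1.60) fell, and the effector Yap1 itself fell by 0.20. The other effector, Wwtr1 (TAZ), rose by 0.19, and F3 and Amot rose by 2.04 and 0.91. Of 17 BMP and Id genes, 10 fell and 6 rose. All 4 Id genes fell, Id1 (−2.14), Id2 (−3.04), Id3 (−1.80) and Id4 (−2.83), and so did Smad6 (−1.31), an inhibitor induced by BMP.

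Genes of the lysosome rose nearly throughout. Of 52 measured members, 47 rose and 2 fell, with a median of 0.84; in the last 24 h 48 rose and 0 fell. Lamp2, a protein of the lysosomal membrane, was at 441.7, 458.8, 430.1, 433.7 and 438.9 CPM on day −2 and at 861.7, 873.3, 888.4, 854.7 and 882.3 CPM on day 0 (log2 fold change 0.94, SE 0.02, adjusted p = 6.17e-28). The protease genes Ctsd, Ctsl and Ctsb rose by 1.12, 0.67 and 0.80, the hexosaminidase gene Hexa by 1.21 and Lipa, the acid lipase, by 1.04. The regulator Tfeb was at 0.06 and not called, whereas its relatives Mitf and Tfe3 rose by 1.61 and 0.37. Galc and Atp6v1h were the 2 that fell, by 0.32 and 0.15.

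Most sterol genes rose, for the larger part in the first 24 h, and fatty acid synthesis genes were mixed. Of 30 measured genes of cholesterol biosynthesis and uptake, 27 rose and 1 fell, with a median of 0.53; the median was 0.51 in the first 24 h, with 28 called higher, and 0.06 in the last, with 15 higher and 9 lower. Hmgcs1, for an early enzyme of the pathway, was at 222.8 to 241.8 CPM on day −2, 342.6 to 372.1 CPM on day −1 and 338.2 to 364.2 CPM on day 0, so the last 2 days overlapped. Insig1, a brake on sterol synthesis, rose by 0.87. The export genes Abca1 and Abcg1 rose far more than the synthesis genes, as given above. Of 19 fatty acid synthesis genes, 11 rose and 7 fell: Scd1, a desaturase, rose by 0.75 and Fasn, the fatty acid synthase, fell by 0.43.

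Adipocyte programme genes were mixed before any hormone was added. Of 32 adipogenic transcription factors, 19 rose and 10 fell, with a median of 0.37. Pparg, the master regulator of fat cells, was at 48.8, 49, 47, 51.7 and 56 CPM on day −2 and at 43.1, 40.2, 42.3, 41.2 and 42.5 CPM on day 0, a fall of 0.31 (adjusted p = 2.76e-10). Cebpa, its partner in the mature cell, went from 1.3, 1.83, 2.55, 2.23 and 1.64 CPM to 5.54, 5.73, 5.42, 4.94 and 5.47 CPM (log2 fold change 1.47), and Cebpb, an early factor, rose by 0.38. Zfp423, a factor of preadipocyte commitment, rose from 1.98 to 2.37 CPM on day −2 to 21.6 to 24.6 CPM on day 0 (log2 fold change 3.35, adjusted p = 6.69e-27). Of 14 measured genes of mature adipocytes, 10 rose and 3 fell: Plin4 rose by 2.37, Fabp4 by 1.46, from 9.73 to 12.9 CPM to 28.4 to 35.1 CPM, and Lpl by 1.32. The 3 that fell were Fabp5 (−1.44), Angptl4 (−1.13) and Plin2 (−0.37). Among the preadipocyte markers 12 of 19 rose and 7 fell. The falls were those of Cd24a (−1.32), Twist2 (−1.06), Cd44 (−0.91), Vim (−0.82), Itgb1 (−0.72), S100a4 (−0.66) and Twist1 (−0.28). Pdgfra, a receptor of adipose progenitors, was at 110.7 to 125.6 CPM on day −2 and 481 to 557.4 CPM on day 0 (log2 fold change 2.09), Ly6a rose by 1.92 and Dlk1, an inhibitor of adipogenesis, by 0.64.

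Genes linked to growth arrest rose, 21 of 26 with a median of 1.19, and 5 fell. Gas1 rose by 1.85, the glucose-responsive gene Txnip by 1.66 and the nuclear long non-coding RNAs Neat1 and Malat1 by 1.94 and 1.65; the list also holds Dcn and Pdgfra. In the IGF and insulin axis 13 of 20 genes rose and 6 fell. Igfbp4, a secreted IGF-binding protein, was at 31.1, 31, 29.2, 27.5 and 27.7 CPM on day −2, 119.3 to 131.3 CPM on day −1 and 440.4, 477.8, 496.4, 466.5 and 459.8 CPM on day 0; its log2 fold change of 3.96 had the smallest adjusted p of the genes named here (1.28e-35). Igf1 rose by 1.12 and Igf2r, the scavenging receptor, by 1.49. Of 32 glycolysis and hypoxia genes, 24 rose and 6 fell, with a median of 0.50: Pdk1, which diverts pyruvate from mitochondria, rose by 1.95 and Bnip3 by 1.76, while Ldha and Eno1 fell by 0.12 and 0.45. Of 20 genes for enzymes that write or erase H3K4 methylation and for subunits of their complexes, 9 rose and 10 fell. Of the other KDM5 demethylases, Kdm5a rose by 0.48 and Kdm5b by 1.11, from 78.7 to 175 CPM in group means. Kdm1a, a demethylase of another family, fell by 0.17.

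**Figure D3:**
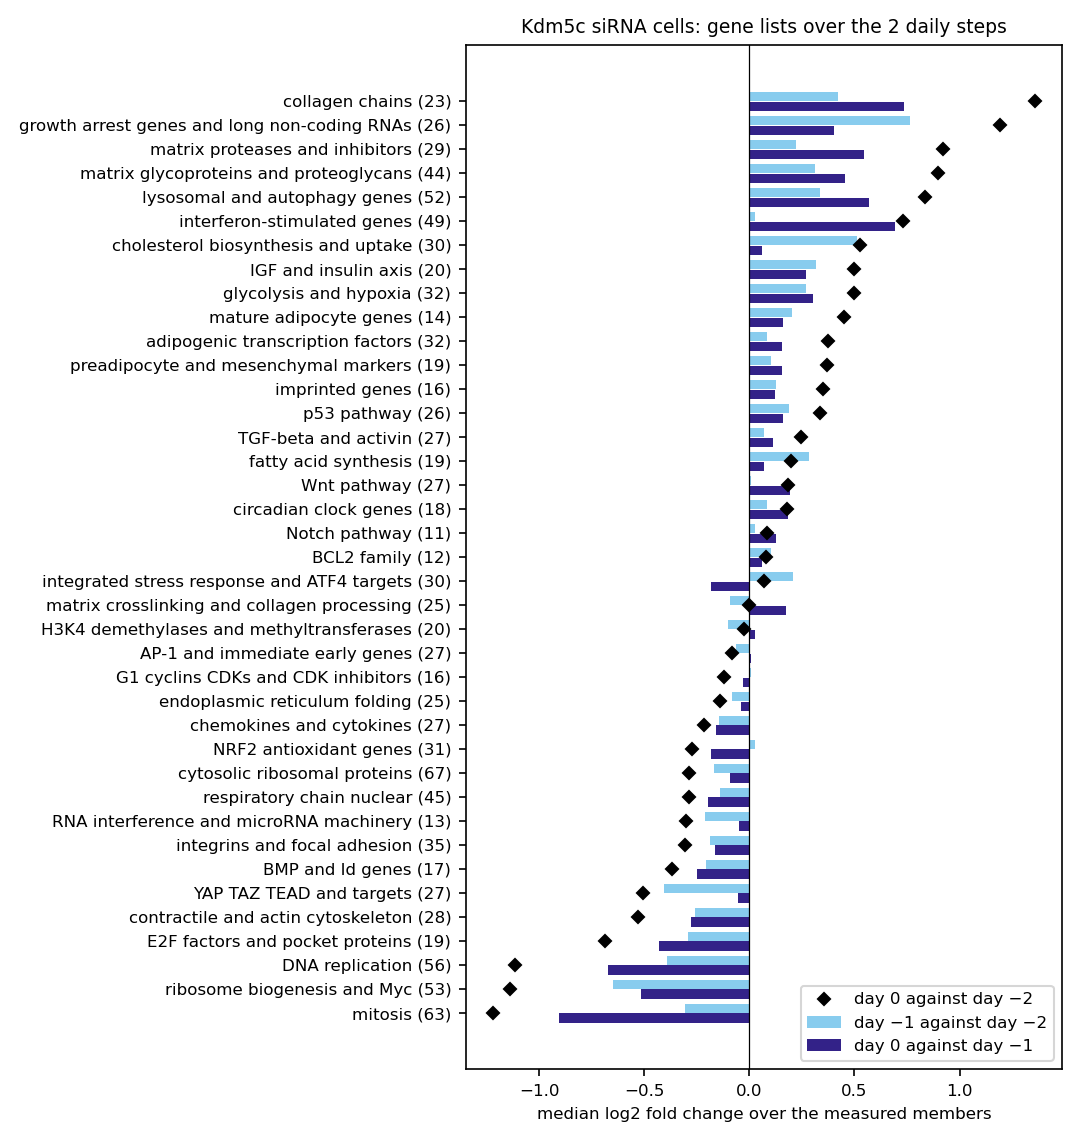
Median log2 fold change over the measured members (number in brackets) of each list with at least 10 of them in Kdm5c siRNA cells; light bars are day −1 against day −2, dark bars day 0 against day −1 and diamonds day 0 against day −2. Mitosis genes changed mostly in the last 24 h (−0.31, then −0.91), cholesterol genes mostly in the first (0.51, then 0.06), and interferon-stimulated genes in the last (0.03, then 0.69). All libraries are used, so the 0.03 includes replicate 2 of day −2, which stood apart in interferon-stimulated genes.

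Interferon-stimulated genes rose, and the size of the rise rested in part on 1 library. Of 49 measured members, 36 rose, 1 fell and 12 were not called, with a median of 0.73; without replicate 2 of day −2, 45 rose, 1 fell and 3 were not called, with a median of 1.04. Oas2, a sensor of double-stranded RNA, was at 5.04, 20.9, 4.48, 5.05 and 8.02 CPM on day −2 and at 78.4, 55.7, 39.5, 41.4 and 37.7 CPM on day 0 (log2 fold change 2.49, adjusted p = 1.08e-08). Replicate 2 was the highest on day −2, yet the days did not overlap. Isg15, a ubiquitin-like protein, was at 37.7, 110.2, 38.8, 33.3 and 47.2 CPM on day −2 and at 75.3, 61.5, 46.2, 56.3 and 55.4 CPM on day 0; its log2 fold change of 0.10 was not called (adjusted p = 0.733), and without replicate 2 it was 0.55 (adjusted p = 0.0241). The days overlapped in Bst2 as well. Bst2, an antiviral membrane protein, rose by 0.78, or by 1.12 without that library, and B2m, the light chain of MHC class I, by 0.95, or by 1.04. The chemokine gene Cxcl10 was the member that fell, by 1.26, or by 0.89 without replicate 2, where it was at 38.8 CPM against 13.6 to 18.3 CPM in the other 4 libraries. With all libraries, most of the list's rise came late: in the first 24 h 9 members rose and 8 fell, and in the last 42 rose and 0 fell. The first 24 h were not recomputed without replicate 2 of day −2. On the log2(CPM + 0.5) scale the list's mean was 4.05 to 4.69 on day −1 and 4.90 to 5.42 on day 0. On day −2 it was 5.17 in replicate 2, above all day −1 libraries, and 3.88 to 4.22 in the other 4 libraries.

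**Figure D4:**
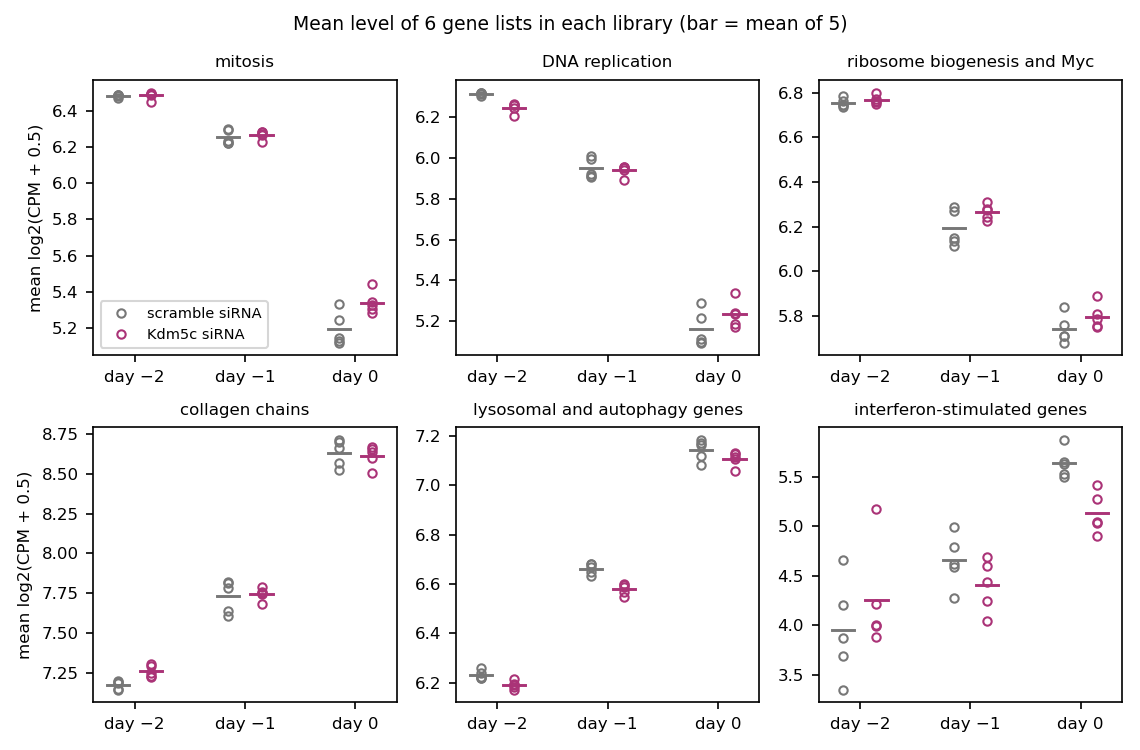
Mean log2(CPM + 0.5) over the members of 6 lists in each library, by day, for Kdm5c siRNA and scramble cells; circles are libraries and short lines the mean of 5. Mitosis, replication and ribosome biogenesis genes step down and collagen and lysosome genes step up with no overlap between day −2 and day 0; in the interferon panel the Kdm5c siRNA library at 5.17 on day −2 lies among the day 0 libraries (4.90 to 5.42).

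Some genes turned round at day −1. In 448 genes (3.73%) day −1 was called above both other days, and in 422 (3.51%) below both; both steps use the day −1 libraries, so these counts are a description. Ntrk3, the receptor of neurotrophin 3, was at 10.9, 7.32, 10.7, 10.7 and 9.05 CPM on day −2, at 22, 20.3, 24.2, 24.7 and 22.3 CPM on day −1 and at 9.42, 8.94, 9.78, 11.3 and 10.4 CPM on day 0. Its day 0 and day −2 libraries overlapped, with no called change (log2 fold change −0.01, adjusted p = 0.932). Csrp2, a LIM protein gene, peaked in the same way (25.7 to 30 CPM, then 53.2 to 57.9 CPM, then 34.2 to 39.4 CPM), as did the growth arrest gene Gas2 (61.5 to 69.3, 128.2 to 144 and 90.2 to 100.2 CPM), Syn1, Peg3 and Ccdc184. Adm, for the vasodilator peptide adrenomedullin, had a trough: 7.02 to 8.4 CPM, then 3.58 to 4.84 CPM, then 10.2 to 11.4 CPM. Bmper, Tfpi2, Spry1 and the interferon-induced Rsad2 and Zbp1 were also lowest on day −1; Rsad2 stood at 22 CPM in replicate 2 of day −2 against 7.27 to 8.59 CPM in the other 4.

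Knocked-down cells and scramble cells changed in much the same way, and the differences were small for most genes. Across the 12016 genes the log2 changes of the arms, which share no library, had a Pearson r of 0.976 and a Spearman rho of 0.977; genes are not independent replicates, and the figures are a description. In scramble cells 10603 genes were called (88.2%). In both arms 9880 genes were called in the same direction, 45 in opposite directions, 581 in the Kdm5c siRNA arm alone and 678 in the scramble arm alone, which does not show that these differ. The difference itself was called for 1937 genes (16.1%): 1195 were higher in knocked-down cells (9.95%) and 742 lower (6.18%), and 181 of the differences were over 1.5-fold.

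Among the genes with the largest differences, several rose or fell less than in scramble cells and others more. Phex, an endopeptidase gene of bone cells (chromosome X, 157162075 to 157415312, minus strand), was at 5.7, 6.37, 6.08, 7.07 and 5.21 CPM on day −2 and at 45.4, 40.8, 35.9, 36.8 and 38.6 CPM on day 0 in knocked-down cells. In scramble cells it went from 4.23 to 5.32 CPM to 10.8 to 13.8 CPM, and the change was larger in knocked-down cells by 1.33 on the log2 scale (adjusted p = 5.05e-10). Lrrc15, for a membrane protein of activated fibroblasts, rose to 14.8, 16.4, 16.8, 16 and 14.9 CPM on day 0 in knocked-down cells from 1.85 to 2.51 CPM, and to 5.88 to 6.54 CPM in scramble cells (difference 1.34, adjusted p = 1.55e-08). Igfbp6, another IGF-binding protein, was at 6.96 to 8.58 CPM and then 17.8 to 21.7 CPM in knocked-down cells and at 8.8 to 10.8 CPM on day 0 in scramble cells (difference 1.02), and Slpi, a protease inhibitor, had a difference of 1.03. In Slco4a1, an anion transporter gene, and Mcam, an adhesion molecule, the positive difference (1.41 and 1.15) stood for a smaller fall: Slco4a1 went from 33.5 to 40.3 CPM to 4 to 6.19 CPM in knocked-down cells and from 38.5 to 51.8 CPM to 1.94 to 2.63 CPM in scramble cells. So it did in the enteric actin gene Actg2 (0.98). Ntrk3, not called in knocked-down cells, fell in scramble cells by 1.33, from 8.2 to 10.9 CPM to 3.36 to 5.3 CPM (difference 1.32, adjusted p = 7.51e-08). Apod, a lipid-binding lipocalin gene, rose less in knocked-down cells: it was at 1.34, 4.34, 1.67, 2.61 and 1.94 CPM on day −2 and at 18.1, 15, 16.2, 18.1 and 18.3 CPM on day 0, and in scramble cells at 1.31 to 3.91 CPM and 36.7 to 59 CPM. The difference was −1.63 (adjusted p = 0.000883), or −1.29 without replicate 2 of day −2 (adjusted p = 0.00999).

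**Figure D5:**
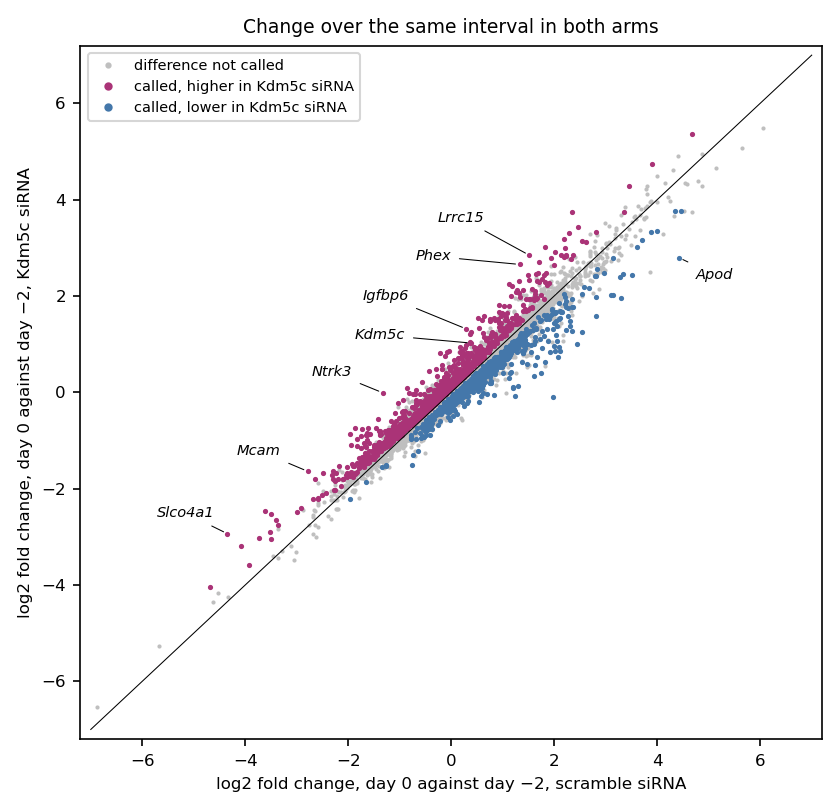
Log2 fold change from day −2 to day 0 of 12016 genes in scramble cells (horizontal) and Kdm5c siRNA cells (vertical), with the line of equal change; coloured points are the 1937 genes whose difference was called. Points lie along the line (Pearson r 0.976), with Slco4a1, Lrrc15, Phex and Ntrk3 above it by 1.32 to 1.41 and Apod below it by 1.63.

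For part of the cell division genes the fall from day −2 to day 0 was smaller in knocked-down cells than in scramble cells. Of the 63 mitosis genes, 29 had a called positive difference and 0 a negative one, with a median of 0.14, and of the 56 replication genes 23 and 0, with a median of 0.13. Over all genes tested, 9.95% had a called positive difference and 6.18% a negative one. Without replicate 2 of day −2 the counts of the 2 lists were 24 and 19. Over all genes, positive differences then went from 1195 to 1078 and negative ones from 742 to 606. On the log2(CPM + 0.5) scale, mitosis genes stood at 6.45 to 6.502 on day −2 in knocked-down cells and 6.47 to 6.49 in scramble cells, and on day 0 at 5.28 to 5.44 and 5.12 to 5.33. The day 0 libraries of the arms overlapped. DNA replication genes stood at 6.21 to 6.26 on day −2 in knocked-down cells and at 6.30 to 6.32 in scramble cells, without overlap, and on day 0 at 5.17 to 5.34 and 5.10 to 5.29, with overlap. The positive differences of that list thus include a lower level on day −2 in knocked-down cells. For Cdk1 the difference was 0.20 (adjusted p = 0.00132) and for Mki67 0.14 (adjusted p = 0.00654), against log2 fold changes of −1.53 and −1.21. In the lists of interferon-stimulated genes and of the integrated stress response, 28 of 49 and 17 of 30 members had a called negative difference. The first count rested on 1 library: without replicate 2 of day −2 it was 2 of 49, with the median going from −0.93 to −0.52, while the second was 13 of 30. Of the interferon-stimulated genes with the largest differences, Iigp1 (−1.44), Ifit3 and Ifit3b (both −1.33), Rsad2 (−1.30), Ifi44 (−1.28), Zbp1 (−1.26) and Oasl2 (−1.24) all lost their call without that library, with adjusted p of 0.102 to 0.288; Ifi44 lost it under 22 alternatives in all, and Rsad2, Zbp1 and Oasl2 without single scramble libraries. Ifit3 and Ifit3b, and the Iigp1 family, are close copies whose shared reads may be split between them.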

How the data were processed

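Messenger RNA was measured in 30 libraries, 5 in each of 6 groups; groups were taken from the labels. The authors deposited a count table of 12016 genes, holding whole-number read counts, and a CPM table of 55573 genes in reads scaled to a common library total. The submitters' processing notes name STAR 2.7.2a, edgeR 3.26.8 and GRCm38; counter, annotation and treatment of shared reads: not given in the sources used here. Genes in the count table were those with at least 1 CPM in at least 20 libraries. Whole reads were recovered from the CPM table for 100% of its values, within 0.05 reads. Columns of per-sample values left unused numbered 0.

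Counts of all 30 libraries were fitted with edgeR 4.0.16 (R 4.3.3; TMM factors, quasi-likelihood F test, 6 group means, 24 residual degrees of freedom, common biological coefficient of variation 0.0367), with Benjamini-Hochberg adjustment over 12016 genes and a threshold of 0.05. "Higher", "rose", "lower" and "fell" refer to that threshold. The difference between arms is the interaction of siRNA and day. The fit was tested on simulated data in which far fewer genes changed than were called here. That test therefore could not show how the scaling behaves in these data. Kdm5c was also tested with an exact permutation test in both directions. The genes named singly were Kdm5c, the 12 largest rises and falls among tested genes averaging 5 CPM or more whose days did not overlap, the 6 largest peaks and 6 largest troughs at day −1, the 8 largest differences between arms in each direction, and key members and exceptions of lists. Predicted genes, pseudogenes and small RNAs were left out. The libraries compared and the 47 gene lists were chosen with earlier results of these data known. Promoters came from RefSeq (GRCm38.p6), matched by symbol. Alternatives were DESeq2 1.42.0, limma 3.58.1 on log2(CPM + a pseudocount), other scaling, other filters, fewer libraries and a replicate block. Thbs2, Cdkn2d, Fabp5, Angptl4, F3, Amot, Csf1r, Cd14, Vwf, Des, Tnnt3, Cd44, Vim, Itgb1, S100a4 and Twist1 lie outside the rule for named genes or were added to complete a list's account, and were picked with their values known. So were Cd68, Aif1, Mrc1, Kdr, Pecam1, Tek, Sp7, Bglap, Ibsp, Col2a1 and Acan.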

Additional observations from a re-analysis of the deposited data

Results flagged for a closer look

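In groups of 5 libraries, a library was set apart when its gap to the nearest other library took up an unusually large part of the group's range. Of 137 such groups 11 (8.03%) were, where chance gives about 1 in 20. The read total of replicate 1 of Kdm5c siRNA day 0 was 30688043, against 27587297 to 28290884 in the other 4. For single genes in Kdm5c siRNA cells, Kdm5c was at 23.3 CPM in replicate 5 of day −2 (others 25.76 to 26.74), Lpcat2 at 0.7204 CPM in replicate 1 of day −2 (others 0.3776 to 0.4562), Acta1 at 34.79 CPM in replicate 3 of day −2 (others 31.84 to 32.41) and Lce1g at 0.4242 CPM in replicate 2 of day 0 (others 0.1417 to 0.2175). Ccn2 stood at 80.88 CPM in replicate 2 of day −2 (others 68.2 to 71.87).

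For list means on the log2(CPM + 0.5) scale, replicate 2 of Kdm5c siRNA day −2 stood at 6.45 for mitosis genes (others 6.489 to 6.502), at 5.17 for interferon-stimulated genes (others 3.876 to 4.216) and at 6.528 for the integrated stress response (others 6.287 to 6.356). Replicate 2 of day 0 stood at 7.984 for ribosomal proteins (others 7.912 to 7.926) and at 6.296 for TGF-beta and activin genes (others 6.326 to 6.338).

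The change from day −2 to day 0 differed between the siRNAs, by edgeR's test of the difference, in 16 named genes. It was larger, or the fall smaller, in Kdm5c siRNA cells for Slco4a1 (1.41 on the log2 scale), Lrrc15 (1.34), Phex (1.33), Ntrk3 (1.32), Mcam (1.15), Slpi (1.03), Igfbp6 (1.02) and Actg2 (0.98). It was smaller for Apod (−1.63), Iigp1 (−1.44), Ifit3 (−1.33), Ifit3b (−1.33), Rsad2 (−1.30), Ifi44 (−1.28), Zbp1 (−1.26) and Oasl2 (−1.24).

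Among genes outside the deposited count table, 1838 were called between day 0 and day −2 in Kdm5c siRNA cells by edgeR on the recovered reads.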

How the results depend on the processing

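All 230 counts of called genes stayed within 1.5 times their value under the alternatives, as did the 882 counts of list members called between day 0 and day −2 in the list's more frequent direction. Counts of differences between the arms within lists were recomputed only without replicate 2 of Kdm5c siRNA day −2, where that of lower interferon-stimulated genes went from 28 to 2. Of the recomputed list medians, 710 moved by less than the spread between replicates and 172 by more. The sign changed only in 4 lists with medians close to 0: enzymes of H3K4 methylation (0.01 without scaling factors), matrix crosslinking (0.04 likewise), mitochondrial mRNAs (0.0022 likewise) and histone genes (−0.07 with at least 5 CPM in 5 libraries). For day 0 against day −2, 5269 genes were higher and 5237 lower; without scaling factors, which moved the median of all genes to 0.04, these were 5563 and 4953, so changes of that size depend on the scaling. Testing every gene with a read gave 6779 and 6467, and the recovered reads with the edgeR low-count filter, chosen after seeing the data, 6243 and 6140. A replicate block gave 5272 and 5221. Deviations of same-numbered day −2 and day 0 libraries correlated at −0.188 to 0.106, and those of differently numbered ones at −0.203 to 0.26. No pairing by number showed, but weak correlations cannot exclude a culture or batch shared by number. Of the recomputed values of named genes, 1488 stayed on their side of the threshold and 37 lost their call. All 37 were differences between the arms in interferon-stimulated genes, 22 of them Ifi44; Rsad2, Zbp1 and Oasl2 also lost it without replicate 1 of scramble day −2. At this depth, levels of 0.098 to 0.114 CPM and below cannot be told from 0.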

Other observations

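Genes outside the deposited count table added further changes; the genes named in this paragraph were chosen after their values were seen. The edgeR low-count filter left 15135 genes, 3119 of them outside the table, of which 1838 (58.9%) were called: 1246 higher and 592 lower on day 0 than on day −2. By over 4-fold, 368 were higher and 94 lower. All genes outside the table were under 1 CPM in part of the 30 libraries. Shank2, a scaffold protein gene of synapses, was at 10.9, 10.8, 11, 11.1 and 11.4 CPM on day −2 and at 0.228, 0.177, 0.283, 0.0715 and 0.109 CPM on day 0. U90926 went from 9.53 to 12.8 CPM to at most 0.106 CPM, and Selp, the P-selectin gene, from 7.15 to 10.9 CPM to 0.0707 to 0.286 CPM. Cnn1, the smooth muscle gene calponin, went from 3.23, 3.12, 3.53, 3.36 and 3 CPM to 0.261, 0.46, 0.46, 0.644 and 0.399 CPM. In the other direction, Tnr, for the matrix protein tenascin R, went from 0.0686 to 0.271 CPM to 4.4 to 6.83 CPM, and Lum, for the proteoglycan lumican, from at most 0.19 CPM to 1.66 to 2.97 CPM. Several of the levels of these named genes lie near the detection limit, so no fold is given for them.

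Other gene lists were mixed. In the integrated stress response list 14 of 30 members rose and 13 fell. Ddit3, the CHOP transcription factor gene, was at 16.5, 16.4, 12.9, 16 and 15.5 CPM on day −2 and at 50.8, 53.1, 48.9, 51.3 and 47.3 CPM on day 0, and Psat1, for serine synthesis, fell by 0.89 on the log2 scale. In the Notch list 6 of 11 rose and 5 fell: Notch3, a receptor of mural cells, rose by 3.88, from 2.09 to 2.37 CPM to 31.5 to 36.2 CPM, and the target Hes1 fell by 0.83. Of 27 Wnt genes 16 rose and 9 fell, with the ligand gene Wnt6 rising by 3.80. Of 27 immediate early genes 11 rose and 13 fell (Egr1 by 1.09 higher, Fosl1 by 1.80 lower). Of 31 NRF2 genes 12 rose and 18 fell, among them Gclc, for glutathione synthesis, by 1.28. Of 27 chemokine and cytokine genes 11 rose and 14 fell; Ccl11, eotaxin, rose by 3.51 and Ccl2 fell by 1.42. Of 16 imprinted genes 10 rose and 4 fell, Mest rising by 3.66. Of 18 clock genes 9 rose and 7 fell, Rora rising by 2.51.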
